A study of Mus musculus with 60 samples.

Results

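Microglia that had carried the mark of Spp1 expression were compared, 28 days after a neonatal stroke and with no further challenge, with microglia of the uninjured side of the brain. The comparison used 8 of the 52 bulk RNA libraries in a series of 60 samples. It set 4 libraries of Tdt+ microglia from the injured cortex against 4 libraries of microglia from the contralateral cortex, and each library shared a replicate number, from 1 to 4, with a library of the other group. The libraries were chosen by their group labels and not by any measured value. Another 4 libraries of Tdt- microglia from the injured cortex shared the fit, and their values are given beside the results that turn on them.

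All mice had the genotype Spp1-CreER:R26-Tdtomato and were at postnatal day 34 when cells were sorted, and both groups came from mice with a stroke, so neither group is an uninjured animal. The red reporter is expressed from the Rosa26 locus once a tamoxifen-dependent Cre recombinase, driven by Spp1, has been active in a cell, and it stays on afterwards. The label therefore marks cells that once expressed Spp1 while the drug was present, whatever they express later, and the timing of the drug is not given in the sources used here. That contralateral cells were Tdt- is known here only from column headers, since the sample labels are silent on it. Each library was made from 2000 sorted cells. The labels do not say whether libraries are separate animals, so p-values measure spread between these samples only.

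Microglia are the resident macrophages of the brain. In a healthy brain they keep a homeostatic program of purinergic and chemokine receptors such as P2ry12 and Cx3cr1. Around injury or degeneration many of them lower that program and take on a disease-associated state (DAM) with high Apoe, Clec7a, Lpl and Spp1, the last of which encodes the secreted protein osteopontin. Interferon response genes, antigen presentation genes and complement genes often accompany that state in mouse models.

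The libraries carried the microglial markers at high level. P2ry12 lay between 9975 and 10659 TPM (an abundance corrected for transcript length and scaled to 1 total in every library) in Tdt+ and between 7511 and 10826 TPM in contralateral libraries, and Tmem119 between 5116 and 5226 and between 5260 and 5486. The libraries held 11912 to 12169 genes at 1 TPM or more. TPM keeps no read depth, so the depth of each library is unknown. Contralateral library 4 stood apart, with the lowest P2ry12 (7511) and Cx3cr1 (1836) of the 12 libraries. On PC1, the main axis of variation between the libraries (13.13%), all libraries of number 4 were shifted. Contralateral, Tdt- and Tdt+ library 4 lay at 53.97, 30.41 and 29.11, and all others between -25.17 and -1.07. P2ry12 was not low in Tdt- and Tdt+ library 4 (10958 and 10483 TPM). Values without contralateral library 4 are given beside many of the results, but not beside all. They keep the other libraries of number 4. Many defining markers of other cells were listed at 0 in all 8 libraries, among them Cd163 of border-associated macrophages, S100a8 and Ly6g of neutrophils and Cd79a of B cells, and the summed level of 10 T and NK cell markers was at most 0.63 TPM. Other lists were far from 0 through 1 or a few members: the 6 B cell markers summed to 562 to 789 TPM in Tdt+ and 534 to 856 in contralateral libraries, mostly Ighm, and the 9 neutrophil markers to 268 to 317 and 265 to 302, nearly all Csf3r. The 8 astrocyte markers summed to 98.4 to 168 and 96.6 to 144 TPM, mostly Slc1a3, and the 9 oligodendrocyte markers to 146 to 156 and 98.3 to 153, mostly Cnp. The summed level of 8 monocyte markers was 10.0 to 23.6 TPM in Tdt+ and 8.25 to 20.9 in contralateral libraries, and that of 10 border-associated macrophage markers was 315 to 386 and 323 to 417, most of it from Stab1. The differences of this last list are given with Pf4 below.

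No gene passed the test between Tdt+ and contralateral microglia at day 28. Differences are on the log2(TPM + 1) scale, with the standard error (SE) of the fit, and p-values are from limma with the replicate number as a block, adjusted by Benjamini and Hochberg over the 12710 genes tested. At an adjusted p of 0.05 the count was 0 of 12710 (0%), and it was 0 without the block too. At an unadjusted p below 0.05 there were 796 genes (6.26%), of which 400 were higher (3.15%) and 396 lower (3.12%) in Tdt+ cells, and 585 without the block. The groups did not overlap for 155 genes with the Tdt+ libraries higher (1.22%) and 185 with them lower (1.46%), and the median difference of all genes was -0.00. Differences were positive for 49.9% of genes, higher within all 4 numbers for 5.9% and lower within all 4 for 6.77%. Tdt+ against Tdt- microglia of the injured cortex, and Tdt- against contralateral microglia, also gave 0 genes by limma, with 616 (4.85%) and 782 (6.15%) at an unadjusted p below 0.05. These 3 comparisons share libraries. In bulk samples, fewer cells of a type and less RNA per cell cannot be told apart, here and in all results that follow.

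Apoe, which encodes the main lipid carrier of the brain, was the gene with the smallest p. Its level was 3412, 4987, 4773 and 3547 TPM in Tdt+ libraries 1 to 4 and 2622, 2964, 2627 and 1855 TPM in contralateral libraries. Every Tdt+ library was above every contralateral library, and above every Tdt- library, which ran from 2215 to 2808 TPM. Mean levels were 4180 ± 815 and 2517 ± 469 TPM (SD, n = 4), a ratio of 1.66, and the log2 difference was 0.73 ± 0.12 (SE; 95% interval 0.48 to 0.99). It did not pass over all genes (limma, Benjamini-Hochberg adjusted p = 0.32). An exact two-sided permutation test of Apoe alone gave p = 0.0286, the smallest that 4 against 4 libraries can give. Any gene whose groups do not overlap gets this value, and Apoe was picked by its smallest p. The permutation p therefore adds no support. Apoe passed when only the groups compared entered the fit (adjusted p = 0.047) and without Tdt+ library 1 (adjusted p = 0.020), and its difference without contralateral library 4 was 0.64.

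Spp1, the gene whose promoter set the label, was low in both groups 4 weeks after injury. It was at 31.7, 1.3, 8.45 and 2.19 TPM in Tdt+ libraries and at 1.49, 1.23, 2.4 and 2.77 TPM in contralateral libraries. Only Tdt+ libraries 1 and 3 lay above the contralateral range, and the groups overlapped. The log2 difference was 1.25 ± 0.58, not past the test (limma adjusted p = 0.79; exact permutation p = 0.314), and it was 0.55 without Tdt+ library 1. Without contralateral library 4 it was 1.76. In Tdt- libraries Spp1 lay between 0.82 and 6.68 TPM.

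**Figure D1:**
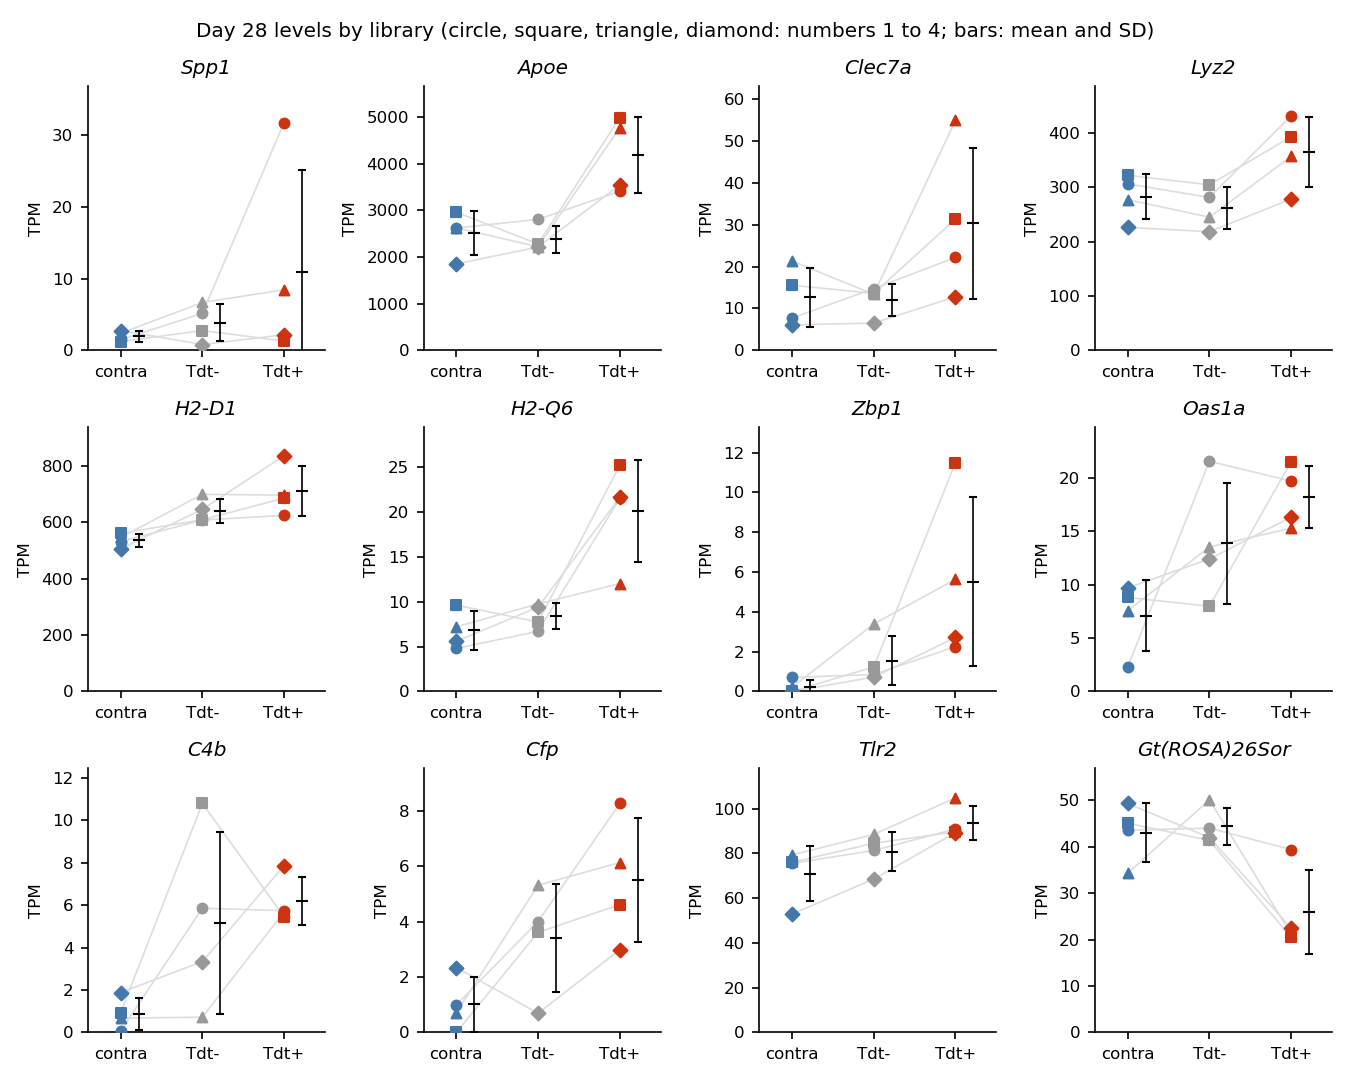
Level of 12 genes (TPM, linear axes) in each day 28 library of contralateral, Tdt- and Tdt+ microglia, with symbols and grey lines for replicate numbers 1 to 4 and black bars for the mean and SD (n = 4). Apoe in the 4 Tdt+ libraries sits between 3412 and 4987 TPM, above all 4 contralateral libraries, while Spp1 overlaps.

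Of the 28 DAM genes listed, 27 were tested and 0 passed. Their median difference was 0.20, against -0.00 over all genes, 8 had an unadjusted p below 0.05 with higher levels in Tdt+ cells and 0 with lower levels, where all genes gave 3.15% and 3.12%. The median was 0.10 without contralateral library 4 and 0.09 without contralateral library 2, and 7 were higher at that p without contralateral library 4. It was 0.16 for Tdt+ minus Tdt- and -0.03 for Tdt- minus contralateral. Besides Apoe and Spp1, the 8 were Clec7a, Lyz2, Fth1, Ctsd, Lpl and Axl. For Ctsd, Tdt+ minus Tdt- was -0.03.

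Clec7a encodes dectin-1, a receptor for beta-glucans. It was at 22.2, 31.3, 54.8 and 12.8 TPM in Tdt+ libraries and at 7.71, 15.5, 21.3 and 6.1 TPM in contralateral libraries. It was higher in Tdt+ cells in each of the 4 numbers although the groups overlapped, since both libraries of number 4 were low and both of number 3 were high. The difference was 1.16 ± 0.28 (limma adjusted p = 0.61), a ratio of means of 2.39. Lyz2, the macrophage lysozyme, was at 432, 393, 357 and 279 TPM against 307, 322, 278 and 227 TPM. It too was higher within each number, by 0.36 ± 0.09 (adjusted p = 0.62), with overlap between groups. Fth1, the ferritin heavy chain that stores iron, ran from 2083 to 2789 TPM in Tdt+ and from 1867 to 2080 TPM in contralateral libraries without overlap (0.22 ± 0.07, adjusted p = 0.78). Without contralateral library 4 its difference was 0.16.

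Other defining DAM genes did not separate. The receptor Trem2 differed by -0.03 ± 0.07 and its signalling partner Tyrobp by -0.01 ± 0.07. Cst7, an inhibitor of lysosomal cathepsins, differed by 0.34 ± 0.21, and the galectin gene Lgals3 by -0.66 ± 0.51 with 0.84 to 31.4 TPM in Tdt+ libraries. Gpnmb, a marker of late DAM, was below the filter, with 1.03 TPM as its highest level in the 8 libraries. Csf1, a growth factor for microglia, had the smallest p of the DAM genes that were lower (-0.68 ± 0.36, adjusted p = 0.81).

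All 24 homeostatic genes were tested, 0 passed, and their median difference was 0.05. The purinergic receptor P2ry12 differed by 0.10 ± 0.09, with a 95% interval of -0.09 to 0.28, and by -0.03 ± 0.04 without contralateral library 4. The fractalkine receptor Cx3cr1 differed by 0.07 ± 0.12, and by -0.12 ± 0.06 without that library. The positive sign of both therefore rests on contralateral library 4. Sall1, a transcription factor of microglial identity, differed by -0.06 ± 0.12. At an unadjusted p below 0.05, 1 was higher and 2 were lower, where all genes gave 3.15% and 3.12%. The 2 were the crystallin gene Crybb1 (-0.24 ± 0.09) and the Fc receptor-like gene Fcrls (-0.13 ± 0.06). Tmem119, a membrane protein of microglia, was lower in all 4 Tdt+ libraries than in any contralateral library (-0.06 ± 0.06). The median of the list was -0.03 without contralateral library 4, so its sign rests on that library, and it lay between 0.01 (without Tdt+ library 3) and 0.08 (without contralateral library 2 or Tdt+ library 2) when any other library was left out.

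Of the 38 genes of the type I interferon response, 36 were tested and 0 passed, with a median of 0.29. At an unadjusted p below 0.05, 7 were higher and 1 was lower, where all genes gave 3.15% and 3.12%. With no overlap between groups, 5 of the 36 were higher (13.9%, against 1.22% of all genes). Without contralateral library 4 the median was again 0.29 and 7 were higher at that p, but without Tdt+ library 2 the median was 0.165. The list's median was 0.09 for Tdt+ minus Tdt- and 0.12 for Tdt- minus contralateral.

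Zbp1, a sensor of Z-form nucleic acids, was at 2.25, 11.5, 5.63 and 2.71 TPM in Tdt+ libraries and at 0.7, 0, 0.21 and 0 TPM in contralateral libraries. Each Tdt+ library was above each contralateral one, and the Tdt- libraries lay between 0.72 and 3.39 TPM (2.23 ± 0.49, limma adjusted p = 0.60). Oas1a, a synthetase that makes the activator of RNase L, was at 19.73, 21.55, 15.31 and 16.34 TPM against 2.31, 8.81, 7.56 and 9.71 TPM. Its groups did not overlap either (1.37 ± 0.40, adjusted p = 0.78), and the Tdt- libraries, at 7.99 to 21.6 TPM, spanned both. Isg15, a ubiquitin-like modifier, ran from 6.09 to 17.7 TPM in Tdt+ and from 0.78 to 5.97 TPM in contralateral libraries (1.38 ± 0.46). Ifit2 and the deconjugating enzyme Usp18 were also separated, by 0.69 ± 0.31 and 0.55 ± 0.26. Cxcl10, the interferon-induced chemokine, went the other way: it was at 0, 1.36, 0 and 0.38 TPM in Tdt+ and at 9.06, 0, 2.35 and 5.27 TPM in contralateral libraries (-1.505 ± 0.69, adjusted p = 0.79). The groups overlapped because contralateral library 2 was listed at 0. In number 2 the Cxcl10 difference was positive (1.24), and without contralateral library 4 it was -1.08 ± 0.77 over all numbers.

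The promoters of Oas1a and Cxcl10 are shown because their differences had opposite signs, although neither passed the test, so opposite responses are not established. Both hold the core of the interferon-stimulated response element, a sequence through which interferon signalling activates genes. The motif searched was GAAA, any 2 bases and GAAA again, on both strands and with overlaps allowed, within windows of 300 bases, 250 before and 50 after the transcription start, from RefSeq on GRCm38.p6. Of the 38 listed genes, 29 had a window and 20 of those held the motif (69.0%), against 1079 of 27025 genes with a window (3.99%) and 351 of 9059 tested genes with one (3.87%). The Oas1a window, chr5:120907476-120907775 on the minus strand, held 2 overlapping matches, beginning 20 and 14 bases before the start. The Cxcl10 window, chr5:92348840-92349139 on the minus strand, held 1 match that began 213 bases before the start. Capitals mark the matches, and both sequences read 5′ to 3′ along the gene's strand.
Oas1a: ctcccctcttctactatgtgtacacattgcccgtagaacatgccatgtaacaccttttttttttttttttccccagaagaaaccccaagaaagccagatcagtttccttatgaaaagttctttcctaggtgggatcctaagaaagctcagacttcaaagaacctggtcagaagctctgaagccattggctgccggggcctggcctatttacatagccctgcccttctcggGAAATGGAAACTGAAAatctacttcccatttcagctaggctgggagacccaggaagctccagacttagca
Cxcl10: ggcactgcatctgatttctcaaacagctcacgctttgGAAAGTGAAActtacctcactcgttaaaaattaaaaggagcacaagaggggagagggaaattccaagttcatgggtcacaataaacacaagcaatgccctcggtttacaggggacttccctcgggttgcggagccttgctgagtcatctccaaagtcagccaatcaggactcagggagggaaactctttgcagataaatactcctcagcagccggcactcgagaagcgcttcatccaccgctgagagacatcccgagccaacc

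Of 18 MHC class I genes 17 were tested, 15 of them with positive differences, and 0 passed. The median was 0.16, and 0.10 without contralateral library 4. The class I heavy chain H2-D1 was at 625, 687, 697 and 837 TPM in Tdt+ and at 532, 561, 547 and 506 TPM in contralateral libraries. The lowest Tdt+ library lay above the highest contralateral one, and the Tdt- libraries lay between 609 and 700 TPM (0.40 ± 0.09, limma adjusted p = 0.60; 0.33 without contralateral library 4). H2-Q6, a non-classical heavy chain, was at 21.54, 25.23, 12.03 and 21.67 TPM against 4.8, 9.64, 7.21 and 5.6 TPM, again without overlap, with the Tdt- libraries at 6.71 to 9.77 TPM (1.43 ± 0.31, adjusted p = 0.60). Reads of the H2-Q and other class I genes can be shared among near-identical copies, so the split between them is uncertain. H2-K1 (0.25 ± 0.08) and H2-T23 (0.27 ± 0.12) were higher in all 4 numbers, and B2m, the light chain common to class I molecules, differed by 0.08 ± 0.05. Tapbp, which loads peptide onto class I, differed by -0.11 ± 0.09. The motif above was found in 4 of 15 class I windows (26.7%) and not in those of H2-D1, H2-Q6 or Tapbp. MHC class II and costimulation genes had a median of 0.07 over 10 tested genes (-0.03 without Tdt+ library 2, 0.02 without contralateral library 2 and 0.15 without contralateral library 4), with 0 at an unadjusted p below 0.05.

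Of 18 complement genes, 13 were tested, 12 had positive differences and 0 passed. The median was 0.29, but 0.09 without contralateral library 4, 0.12 without Tdt+ library 3, 0.15 without contralateral library 1 and 0.17 without Tdt+ library 4, so its size moved with several single libraries. C4b, which encodes the fourth complement component, was at 5.74, 5.45, 5.69 and 7.87 TPM in Tdt+ and at 0.07, 0.93, 0.67 and 1.88 TPM in contralateral libraries. The Tdt+ libraries were all above the contralateral ones, while Tdt- libraries ran from 0.72 to 10.8 TPM (2.01 ± 0.50, limma adjusted p = 0.65). Cfp, which encodes properdin of the alternative pathway, was at 8.26, 4.61, 6.13 and 2.98 TPM against 0.99, 0, 0.71 and 2.34 TPM, with no overlap (1.75 ± 0.50, adjusted p = 0.73). Without contralateral library 4 the Cfp difference was 2.35. The anaphylatoxin receptor C5ar1 was separated as well (0.39 ± 0.12). C1qa, part of the recognition complex of the classical pathway and far more abundant at 9257 to 10368 TPM, differed by 0.05 ± 0.05. The other chains of that complex were unlike each other: C1qb differed by 0.005 and C1qc by 0.57. Without contralateral library 4, C1qc differed by 0.84 ± 0.26.

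Among lipid handling genes 21 of 23 were tested, 0 passed and the median was 0.18, or 0.32 without contralateral library 3. The cholesterol exporter Abcg1 was lower without overlap, at 233, 239, 224 and 190 TPM against 284, 315, 264 and 341 TPM (-0.44 ± 0.13, adjusted p = 0.78). The Tdt- libraries, at 182 to 287 TPM, were as low on average, with Tdt+ minus Tdt- at -0.00. The endocytic receptor Lrp1 was also lower in all Tdt+ libraries (-0.28 ± 0.13; -0.18 without contralateral library 4). Lpl, the lipoprotein lipase, was higher in each number but overlapped between groups (0.95 ± 0.37; 0.60 without contralateral library 4).

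Of 25 lysosomal genes 24 were tested and 0 passed, with a median of 0.06, and 0.03 without either contralateral library 4 or Tdt+ library 3, but 0.12 without contralateral library 2 and 0.10 without contralateral library 1 or Tdt+ library 2. The cathepsins Ctss (0.16 ± 0.05) and Ctsh (0.17 ± 0.07) and the protease Lgmn (0.09 ± 0.06; 0.05 without contralateral library 4) were higher in every Tdt+ library than in any contralateral one. These were 3 of the 24 (12.5%), against 1.22% of all genes, and 0 of the 24 were lower without overlap. Ctsd, another cathepsin, was higher within each number (0.21 ± 0.07; 0.12 without contralateral library 4), and contralateral library 4, at 14363 TPM, was the lowest of the 8. The Tdt- libraries shared the Ctsd difference, with Tdt- minus contralateral at 0.23 ± 0.07 and Tdt+ minus Tdt- at -0.03 ± 0.07.

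Inflammatory mediators showed no common direction, with 23 of 32 tested, 0 past the test, 10 positive and 13 negative, and a median of -0.06 that lay between -0.07 and -0.00 when 1 library was left out. Tlr2, a receptor for bacterial lipoproteins, was at 90.94, 89.68, 104.86 and 89.31 TPM in Tdt+ and at 75.59, 76.05, 79.35 and 52.91 TPM in contralateral libraries (0.41 ± 0.13, adjusted p = 0.78; 0.33 without contralateral library 4). The cytokine gene Tnf was higher in all 4 numbers (0.97 ± 0.37), Il18, whose product belongs to the interleukin-1 family, was lower in numbers 1, 2 and 4 with overlap between groups (-0.40 ± 0.14, and -0.42 in Tdt- minus contralateral), and Il1a was lower without overlap (-0.34 ± 0.16). Saa3, Marco, Fpr2 and Acod1, which inflammatory stimuli induce strongly in macrophages, were listed at 0 in all 8 libraries.

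Of 25 cell cycle genes, 11 were below the filter, among them Mki67, a proliferation marker listed at 0 in all 8 libraries, and 12 of the 14 tested had negative differences, with a median of -0.26 and 0 past the test. The median was -0.097 without Tdt+ library 2 and -0.16 without Tdt+ library 3, and Tdt- minus contralateral gave -0.30 and Tdt+ minus Tdt- 0.04. Pcna, the sliding clamp of DNA replication, was at 30.0, 27.4, 34.9 and 23.6 TPM against 42.4, 56.1, 46.0 and 27.5 TPM (-0.52 ± 0.19, adjusted p = 0.78). It was lower in each number, with overlap because contralateral library 4 lay within the Tdt+ range. Mcm5, a subunit of the replicative helicase, was the 1 member higher without overlap (0.42 ± 0.30, adjusted p = 0.86). That is 7.14% of the 14 tested, against 1.22% of all genes. Immediate early genes, which can respond to tissue dissociation, had a median of -0.02 over the 13 of 23 genes that were tested, and of 0.115 without contralateral library 2. Egr2 was higher (1.503 ± 0.46, and 1.68 in Tdt- minus contralateral) and Nr4a1 lower (-1.21 ± 0.47) without overlap, both at less than 4 TPM in these libraries.

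**Figure D2:**
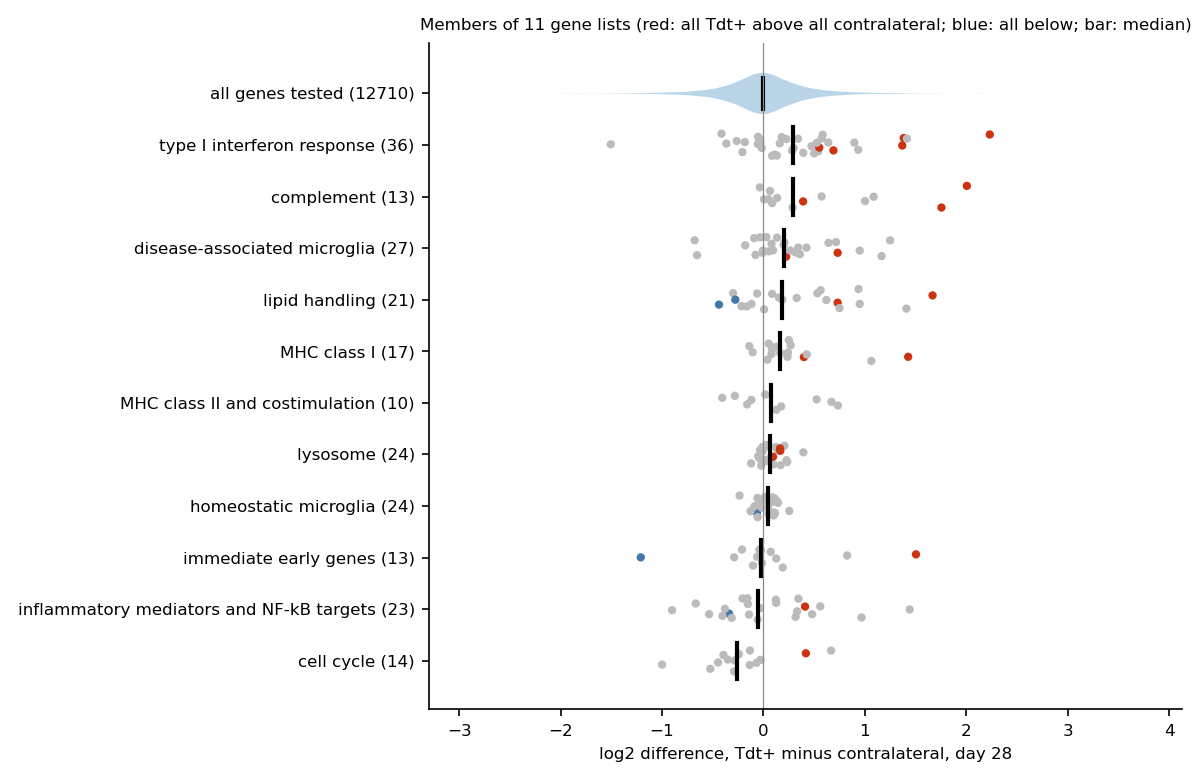
Log2 difference, Tdt+ minus contralateral at day 28, for each tested member of 11 gene lists (points; number tested in brackets), with the distribution over all 12710 genes on top and black bars for medians. Red and blue points mark members whose groups do not overlap; the interferon and complement medians, 0.29 each, lie furthest to the right and the cell cycle median, -0.26, furthest to the left.

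Outside the lists, 16 genes with non-overlapping groups were named by smallest p, 8 in each direction, and none of the 16 passed. Fgl2, a fibrinogen-like protein of immune cells, was at 16.76, 9.5, 13.82 and 15.98 TPM in Tdt+ and at 4.43, 4.65, 6.09 and 5.46 TPM in contralateral libraries (1.27 ± 0.29, limma adjusted p = 0.60). Tnip1, an inhibitor of NF-kB signalling, ran from 12.2 to 20.1 TPM against 8.07 to 9.83 TPM (0.85 ± 0.26). The other 6 that were higher were Zmym6, Gtpbp6, Gtf2h3, Fbxo21, Zfp775 and Slc13a3, with differences between 0.81 and 1.31. Of those that were lower, Nid2, a basement membrane protein, ran from 8.33 to 17.74 TPM against 21.95 to 32.85 TPM (-1.04 ± 0.22, adjusted p = 0.60). Upk1b was at 44.2 to 56.5 against 73.5 to 122.5 TPM (-0.79 ± 0.18; -0.60 without contralateral library 4). The folate enzyme Mthfs was at 79.2 to 86.0 against 119 to 127 TPM (-0.57 ± 0.13), and Tdt- libraries at 69.0 to 101 TPM. Differences of Tdt- minus contralateral were near those of Tdt+ for Mthfs (-0.50), Dusp3 (-0.33) and Zmym6 (0.79). The other 5 were Zfp119b, Ncs1, Cfap20, Dusp3 and Aldh3b1, between -1.38 and -0.36.

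Pecam1, an endothelial adhesion molecule that some macrophages also carry, was at 11.19, 12.52, 13.85 and 11.92 TPM in Tdt+ and at 31.99, 37, 17.55 and 24.28 TPM in contralateral libraries, without overlap (-1.05 ± 0.25, limma adjusted p = 0.61). The summed level of the 8 endothelial markers was 27.4 to 34.2 TPM in Tdt+ and 33.0 to 52.3 TPM in contralateral libraries, a gap that Pecam1 carried: the other 2 tested members, Kdr (0.44 ± 0.43) and Slc2a1 (0.07 ± 0.29), had positive differences. Pf4, a marker of border-associated macrophages and megakaryocytes, was listed at 0 in all 4 Tdt+ libraries and at 3.5, 3.73, 2.07 and 9.87 TPM in contralateral libraries. Its difference was -2.37, and -1.78 without contralateral library 4. Of the 10 border-associated macrophage markers 5 were tested, all 5 with negative differences and 0 past the test. Their median was -0.39, but 0.00 within number 1. Tdt- minus contralateral gave a median of -0.51 and Tdt+ minus Tdt- 0.05. Stab1 was at 0.04 without contralateral library 4. The part of such cells in other differences was not tested.

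Against the same contrast at day 7, when the mice were at postnatal day 13, the genes that had passed then are described at both days. The day 7 libraries (3 Tdt+, 3 contralateral and 3 Tdt-) are other samples, and their table was normalized separately, so only differences within a table are set side by side. At day 7, 27 of 12637 genes passed (0.214%), 19 higher (0.15%) and 8 lower (0.0633%), and 9 passed without the block. Of the 19, 16 were tested at day 28, where 3 had an unadjusted p below 0.05 with higher levels (Apoe, C4b and Ifi207), against 3.15% of all genes. The median difference of the 16 was 1.93 at day 7 and 0.37 at day 28. Of the 8 lower at day 7, all were tested, with medians of -0.81 and -0.00. Because the genes were selected for their day 7 difference, a smaller median in other libraries is partly fixed by that choice.

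The difference between the 2 days was itself tested on the joined tables, and 17 of 13428 genes passed (0.127%), 10 with a higher Tdt+ minus contralateral value at day 28 than at day 7 (0.0745%) and 7 with a lower one (0.0521%). The block decided these calls: without it 0 passed by limma, with 777 at an unadjusted p below 0.05, against 1023 (7.62%) with it. The count also fell to 0 without day 7 contralateral library 2 or day 7 Tdt+ library 2 and to 1 without day 28 contralateral library 3 or day 7 contralateral library 1. Of the 24 homeostatic genes 5 were among the 10. P2ry12 differed by -0.92 ± 0.09 at day 7, where it passed, and by 0.10 ± 0.09 at day 28 (difference 1.02 ± 0.14, adjusted p = 0.014; 0.89 without day 28 contralateral library 4). Selplg, a ligand of selectins, Gpr34, a lysophospholipid receptor, Siglech, a sialic acid-binding lectin, and Crybb1 differed between days by 0.71, 0.77, 0.64 and 0.71. Cst3, the protease inhibitor cystatin C and one of the most abundant microglial transcripts, differed by -0.68 at day 7 and -0.05 at day 28 (adjusted p = 0.015). The 7 with a lower value at day 28 included the chemokine Ccl12 (2.21 at day 7, 0.34 at day 28), the membrane proteins Ms4a6c (2.60 and -0.02), Ms4a6d (1.64 and 0.01) and Ms4a6b (0.91 and 0.00), fibronectin Fn1 and the NAD-consuming enzyme Cd38. The Ms4a6 genes resemble each other in sequence, and reads may be split among them. At day 28 Fn1 and Cd38 were near 0, at most 3.65 and 2.13 TPM in the 8 libraries. None of the 28 DAM genes passed this test by limma. Apoe was 1.66 ± 0.13 at day 7 and 0.73 ± 0.12 at day 28, a difference of -0.93 ± 0.20 (adjusted p = 0.12). Spp1 was 5.09 ± 0.97 at day 7, where it did not pass (limma adjusted p = 0.095), and 1.25 ± 0.58 at day 28. The difference of -3.84 ± 1.20 did not pass either (adjusted p = 0.43).

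**Figure D3:**
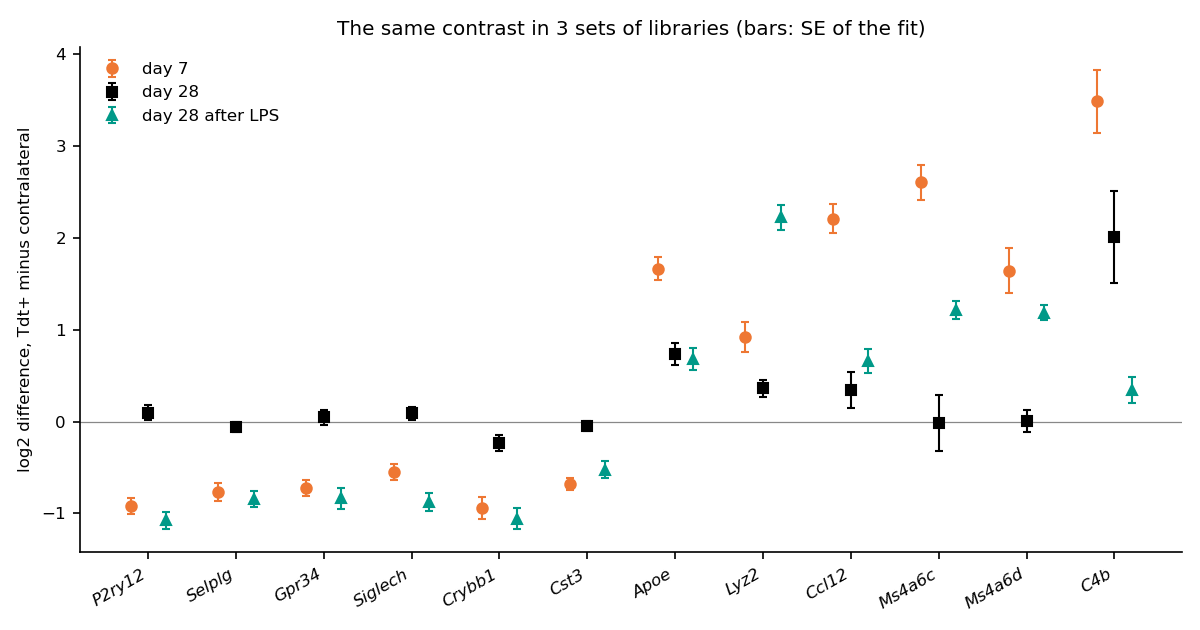
Log2 difference, Tdt+ minus contralateral, for 12 genes at day 7, at day 28 and at day 28 after LPS, with bars for the SE of each fit. P2ry12 lies at -0.92, 0.10 and -1.07 in that order, and Apoe lies above 0 in all 3.

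The same contrast in mice given lipopolysaccharide (LPS), a bacterial cell wall component, at day 28 gave many more calls than the unchallenged libraries. The dose and timing of LPS are not given in the sources used here. After LPS 930 of 13397 genes passed (6.94%), 323 higher (2.41%) and 607 lower (4.53%), in 4 libraries of each group, with 181 without the block (120 higher, 61 lower) and 832 after quantile normalization (392 higher, 440 lower). The median of all genes was -0.12 after LPS. At day 28 without LPS, 251 of the 323 and 600 of the 607 were tested. Their medians there were 0.06 and -0.02, against 0.94 and -0.69 after LPS, and 22 of the 323 were listed at 0 in all 8 unchallenged libraries. Selection after LPS makes the LPS medians large, so the gap between the medians is no test. An unadjusted p below 0.05 in the same direction was found for 18 of the 251 and 32 of the 600, or in the opposite direction for 6 and 15, where all genes gave 3.15% higher and 3.12% lower.

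Tested directly, the contrast differed between LPS and no LPS for 366 of 14022 genes (2.61%), 151 with a higher value after LPS (1.08%) and 215 with a lower one (1.53%), and for 81 genes without the block (61 and 20). After quantile normalization the split was 169 and 168. The median of all genes in this test was -0.12. Homeostatic genes made up 16 of the lower ones, out of 24 listed, 15 after quantile normalization but 2 without the block. P2ry12 was 0.10 ± 0.09 without and -1.07 ± 0.09 with LPS, a difference of -1.17 ± 0.13 (limma adjusted p = 5.4e-05; 0.011 without the block). Of 30 tested inflammatory genes 10 had a higher value after LPS, and 6 without the block, among the 10 Saa3 and Acod1, which were at 0 without LPS. Lyz2, at 0.36 ± 0.09 without LPS, was 2.22 ± 0.13 with it, a difference of 1.86 ± 0.16 (adjusted p = 2.2e-06). Adgre1, which encodes the macrophage antigen F4/80, went from 0.20 ± 0.10 to 1.89. Ctsd, slightly higher without LPS (0.21), was lower with it (-0.75; difference -0.96, adjusted p = 3e-05, but 0.12 without the block). Cxcl10, at -1.505 without LPS, was 2.42 with it (difference 3.92 ± 0.83, adjusted p = 0.013, but 0.063 without the block). Apoe differed between groups by 0.73 ± 0.12 without and 0.68 ± 0.12 with LPS (difference -0.05 ± 0.19, adjusted p = 0.95). Spp1 differed by 1.25 ± 0.58 without LPS and by 1.67 ± 0.13 with it, where it passed (limma adjusted p = 2.6e-05). The change of 0.42 ± 0.62 between them did not pass (adjusted p = 0.85). C4b (2.01 and 0.34) and Zbp1 (2.23 and 0.78) had smaller values after LPS, a change that did not pass (adjusted p = 0.0996 and 0.186). None of the 18 MHC class I genes passed this test by limma.

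**Figure D4:**
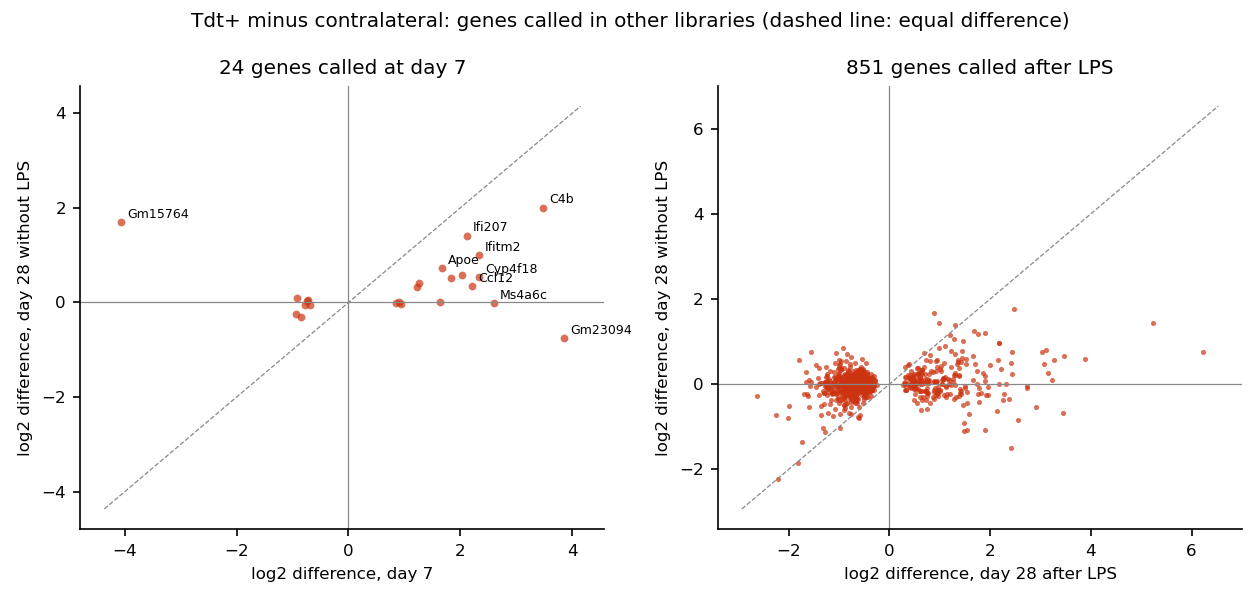
Log2 difference, Tdt+ minus contralateral, at day 28 without LPS (vertical) against day 7 (left, 24 genes that passed at day 7) and against day 28 after LPS (right, 851 genes that passed there); 1 point is 1 gene and the dashed line marks equal differences. On the right the points centre near 0 on the vertical axis (medians 0.06 and -0.02), and on the left C4b lies highest, at 2.01.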

How the data were processed

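Bulk RNA was measured by a modified SMART-Seq2 protocol in 2000 sorted microglia per library. The deposited tables hold TPM per gene, with 55413 symbols. The submitters' processing notes name cutadapt 2.10, STAR 2.7.5c, RSEM 1.3.3 and the build GRCm38, among others and without roles. TPM corrects for gene length and keeps no depth, so no count test was possible. Columns that no sample label matched, 7 in all, were not used.

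Genes with at least 1 TPM in at least 4 of the 12 day 28 libraries (3 of 9 at day 7) were tested on log2(TPM + 1) with limma 3.58.1 in R 4.3.3, with a mean-variance trend, the replicate number as a block and Benjamini-Hochberg adjustment over all genes tested (threshold 0.05). Differences between days or with LPS were tested in 1 fit over the joined tables, within-table contrasts only. The analysis was tested on simulated data. The block was kept because the comparison is defined by number. Residuals of same-numbered Tdt+ and contralateral libraries correlated by 0.0526, -0.00835, 0.0624 and 0.158, so a minimum of 0.1 was met in number 4 only. Folds are the same with and without the block.

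The members, gene lists and tests were chosen with earlier results of these data known. Named genes were Spp1, from each list the 2 higher and 1 lower members of smallest p, from each marker list the most abundant member, and beyond the lists up to 8 in each direction by p, with non-overlapping groups, at least 10 TPM and 1 sign in all numbers, plus up to 6 in each direction from the day 7, LPS and difference tests. Other genes were named to describe a list or a result after their values were seen. Alternatives changed the block, pseudocount, filter, scaling, samples in the fit and each library. A few genes meeting the rule are not reported here.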

Additional observations from a re-analysis of the deposited data

Results flagged for a closer look

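Of 206 groups of 4 libraries examined, 32 had a library far from the other 3 by Dixon's test. The usual chance rate of about 1 in 20 holds for normally distributed values. Here several flagged groups had 1 library above 0 and the other 3 at 0, which the test always flags. The genes were also selected, so the count does not show an excess over that rate. Among contralateral libraries the lowest value stood apart for Tlr2 (52.91 TPM), Ctsd (14360), Mcm5 (5.3), Gtpbp6 (4.11), Fbxo21 (5.26), P2ry12 (7511) and Adgre1 (410.9), and for the mean log2 level of the lysosome list (9.032). The highest contralateral value stood apart for Klrb1c (0.24 TPM), Alas2 (1.31), Upk1b (122.5), Cfap20 (334.6), Fn1 (0.2), Ms4a6c (42.5), Fpr1 (1.04), Lcn2 (0.33), Gm8738 (11.42) and Lox (0.52). Among Tdt+ libraries the highest value stood apart for C4b (7.87 TPM), Tlr2 (104.9), Klrb1c (0.63), Fn1 (3.65), Cd38 (0.21), Fpr1 (0.33), Ch25h (6.99), Insl3 (3.76), Gm8738 (4.08), Rpl10-ps1 (5.16), Lox (0.31) and Gt(ROSA)26Sor (39.41), and for the mean log2 level of the MHC class I list (6.347). The lowest Tdt+ value stood apart for Zmym6 (26.31 TPM).

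The Tdt+ minus contralateral difference was itself different between day 28 and day 7 (day 28 minus day 7, log2) for P2ry12 (1.019), Cst3 (0.6339), Selplg (0.7108), Gpr34 (0.7687), Tmem204 (1.698), Siglech (0.6388), Ms4a6c (-2.616), Ccl12 (-1.863), Ms4a6d (-1.632), Cd38 (-3.556), Fn1 (-4.081) and Ms4a6b (-0.9036). Without the block none of these passed by limma.

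Between LPS and no LPS at day 28 (LPS minus no LPS, log2) it was different for Saa3 (6.884), Lcn2 (5.744), Vnn3 (4.62), Lyz2 (1.861), Adgre1 (1.69), Lox (4.32), Fcgr3 (-0.9164), Ctsd (-0.9575), P2ry12 (-1.171), Gas6 (-1.208), Selplg (-0.7854) and Siglech (-0.9606). Saa3 and Vnn3 were listed at 0 in all 8 unchallenged libraries and Lcn2 and Lox were near 0, so these sizes depend on the pseudocount.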

How the results depend on the processing

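Of 46 named-gene differences at day 28, 45 kept their direction under all 15 alternatives. Leaving out 1 replicate at a time, Grn ran from -0.074 (without Tdt+ replicate 2) to 0.0058 (without Tdt+ replicate 3). Without the replicate block the day 28 count stayed at 0 (585 at an unadjusted p below 0.05, limma), day 7 gave 9 genes, LPS 181, the day 28 minus day 7 test 0 and the LPS minus day 28 test 81. With only the groups compared in the fit, these counts were 2 at day 28 (Apoe, log2 difference 0.73, and Gm4149), 14 at day 7, and 1 and 209 in the difference tests. With no filter they were 6 at day 7, 591 after LPS and 3 for day 28 minus day 7, and with at least 10 TPM 47 at day 7. With a pseudocount of 5 list medians were 0.133 (DAM), 0.195 (interferon), 0.133 (complement) and 0.144 (lipid), and with 0.1 the complement median was 0.394. Leaving out each replicate gave 0 to 1 genes at day 28 and for Tdt+ minus Tdt-, 6 to 15 at day 7, 557 to 791 after LPS, 0 to 11 for day 28 minus day 7 and 236 to 336 for LPS minus day 28. List medians then ran from -0.350 to -0.097 (cell cycle), 0.0916 to 0.379 (complement), 0.0871 to 0.238 (DAM), -0.0841 to 0.115 (immediate early), 0.133 to 0.322 (lipid) and 0.165 to 0.344 (interferon). The single day 28 calls were Apoe without Tdt+ replicate 1 and Gm28661 without Tdt+ replicate 3. The list counts without contralateral replicate 4 were chosen after seeing the data. The causes were not tested, and the unknown depth limits what low genes can show.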

Other observations

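The genes here were chosen after their values were seen. Cytosolic ribosomal protein genes mostly had positive Tdt+ minus contralateral differences: 71 of 82, against 49.9% of all genes, with a median of 0.15. At an unadjusted p below 0.05, 14 were higher, where all genes gave 3.15%, and 0 passed the test by limma. In 0 of the 82 were the groups without overlap. Within replicate numbers the median was 0.04, 0.28, -0.01 and 0.30, so it was near 0 in numbers 1 and 3. Of 11 mitochondrially encoded protein genes, 10 had positive differences, with a median of 0.17.

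Gt(ROSA)26Sor, the transcript of the locus that holds the reporter, was at 39.41, 20.49, 21.13 and 22.51 TPM in Tdt+ and at 43.59, 45.09, 34.28 and 49.33 TPM in contralateral libraries. It was lower in each number, while Tdt+ library 1 lay within the contralateral range (-0.75 ± 0.21, limma adjusted p = 0.73). Gm4149 was listed at 0 in all contralateral libraries and at 10.64, 14.29, 10.75 and 16.47 TPM in Tdt+ libraries, with 0, 0, 11.08 and 15.93 TPM in Tdt- libraries.

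Xist, expressed from the inactive X chromosome, was above the Y-linked genes Ddx3y and Eif2s3y in all 3 libraries of day 28 numbers 1 and 2 and below them in those of numbers 3 and 4. Xist was at 0 in the latter, and Ddx3y was at 0.98 TPM in Tdt+ library 2. By which of them was higher, the libraries of each of 11 numbers across the 3 tables matched, although the LPS libraries of number 3 held Xist (51.0 to 64.1 TPM) and low Y-linked levels (up to 6.12 TPM). The Apoe difference was 0.38 and 0.75 in numbers 1 and 2 and 0.86 and 0.93 in numbers 3 and 4.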
